A study of Mus musculus with 29 samples.

Results

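The endothelial genes Pecam1, Cdh5, Kdr, Tek, Tie1, Cldn5, Esam, Eng, Emcn and Egfl7 were followed through 8 RNA-seq libraries of mouse embryonic brain. They were taken by symbol and make up 10 of the 25239 genes listed in the count tables, and all 10 were among the 15383 genes that passed the filter on low counts. The study mapped the contacts of developmental enhancers in E11.5 mouse embryos and, with polyA RNA-seq, compared wild-type tissue with tissue that lacked an enhancer. The groups were wild-type midbrain, midbrain of the hs654 knockout, wild-type forebrain and forebrain of the hs267-853 knockout, each with 2 replicates. Every replicate was a pool of dissected tissue from several embryos of 1 genotype, with no sorting of cells. The labels name the deleted enhancers and no restriction of the deletions to a cell type. They give neither the strain nor whether the hs267-853 allele removes 1 enhancer or 2.

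Blood vessels enter the embryonic brain from a plexus on its surface, and the growing neural tissue draws them inwards with VEGF-A. Endothelial cells read this signal through the receptor Kdr, are held together by adhesion and tight-junction proteins, and mature as angiopoietins act on the Tek and Tie1 receptors and mural cells settle on the new vessels. Endothelial enhancers and promoters are commonly bound by ETS transcription factors, whose core recognition sequence is GGAA.

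Total gene counts ran from 9051632 to 18024406 per library, and the 10 genes together took 0.0284% to 0.0373% of them. A single endothelial gene had 93 to 1558 counts in a library. For reference, 3 counts, a level that was not the filter, correspond to 0.170 to 0.328 CPM (gene counts scaled to a common library size). Regional markers separated the tissues as labelled: of 10 forebrain transcription factor genes all 10 were higher in wild-type forebrain, with a median log2 fold change of 2.94, and all 10 midbrain genes were lower there, with a median of -3.73. Of a list of 38 further endothelial genes, 36 were listed and 35 passed the filter. Blood, macrophage, mural and mesenchymal genes were detected in every library too, so the RNA came from whole tissue with its vessels and coverings. In such bulk tissue, fewer endothelial cells and less RNA of these genes per cell cannot be told apart.

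Promoter sequence is shown for 2 genes that stood higher in forebrain in the comparisons given further on, Egfl7 and Eng, and for 2 whose tissue difference was near 0, Tie1 and Cldn5. Each run holds the 250 bases just before the outermost RefSeq start of the gene on GRCm38.p6, read 5′ to 3′ on the gene's strand. Capitals mark AGGAAG, one form of the ETS core, on either strand (CTTCCT is its reverse complement).
Egfl7, chr2:26580833-26581082, plus strand: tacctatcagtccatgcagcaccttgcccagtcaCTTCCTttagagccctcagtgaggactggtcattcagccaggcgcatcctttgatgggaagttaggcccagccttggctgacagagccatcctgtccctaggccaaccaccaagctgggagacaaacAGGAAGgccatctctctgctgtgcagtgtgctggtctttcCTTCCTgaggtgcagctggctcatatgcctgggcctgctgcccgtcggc
Eng, chr2:32646345-32646594, plus strand: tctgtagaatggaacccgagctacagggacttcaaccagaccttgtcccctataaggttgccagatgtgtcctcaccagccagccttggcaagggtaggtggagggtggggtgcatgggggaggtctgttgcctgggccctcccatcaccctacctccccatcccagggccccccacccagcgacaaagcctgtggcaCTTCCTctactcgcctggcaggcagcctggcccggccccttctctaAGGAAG
Tie1, chr4:118489850-118490099, minus strand: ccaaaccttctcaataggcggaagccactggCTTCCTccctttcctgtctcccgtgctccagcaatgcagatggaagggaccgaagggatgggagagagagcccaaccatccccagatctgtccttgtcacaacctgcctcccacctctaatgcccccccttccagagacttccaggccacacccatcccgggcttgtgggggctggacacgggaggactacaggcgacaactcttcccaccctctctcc
Cldn5, chr16:18776597-18776846, plus strand: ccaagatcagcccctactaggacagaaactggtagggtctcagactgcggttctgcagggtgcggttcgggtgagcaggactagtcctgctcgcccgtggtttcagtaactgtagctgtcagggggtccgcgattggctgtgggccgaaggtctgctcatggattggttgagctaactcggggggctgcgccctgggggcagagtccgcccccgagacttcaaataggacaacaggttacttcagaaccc
The letters AGGAAG stood 3 times in the Egfl7 run, 2 times in that of Eng and 1 time in that of Tie1, and Cldn5 had no match. Promoter windows were at hand for 7 of the 10 genes, and 4 of the 7 (Egfl7, Eng, Emcn and Tie1) held AGGAAG in the 250 bases before a start. Counted by window, 5 of the 9 windows of these genes held it, against 29.5% of all 32851 RefSeq windows of that length; Egfl7 has 3 starts and so several windows. The form CCGGAA was in 1 of the 9 windows, that of Kdr, against 12% of all windows. Neither the GATA letters AGATAA (9.99% of windows) nor TATAAA (12.4%) occurred in the windows of these 7 genes. The letters therefore did not divide the genes by their tissue difference: Tie1 held AGGAAG and Kdr, one of the genes higher in forebrain, did not.

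Kdr is the main receptor through which endothelial cells respond to VEGF-A. Its level was 66.9 and 80.3 CPM in the wild-type midbrain pools, 85.7 and 84.9 CPM in hs654 knockout midbrain, 90.4 and 93.6 CPM in wild-type forebrain, and 88.4 and 92.1 CPM in hs267-853 knockout forebrain. All 4 forebrain values lay above all 4 midbrain values, and the lowest was that of wild-type midbrain replicate 1. Eng encodes endoglin, a coreceptor for BMP and TGF-beta ligands. It stood at 22.8 and 33.5 CPM in wild-type midbrain, 29.2 and 26.4 CPM in knockout midbrain, 35.5 and 35.2 CPM in wild-type forebrain, and 31.5 and 34.7 CPM in knockout forebrain. The midbrain and forebrain ranges overlapped through wild-type midbrain replicate 2. In RefSeq on GRCm38.p6 Kdr spans chr5:75932827-75979072 and Eng chr2:32646595-32682669. Reads of Eng may be split with Fpgs, which overlaps it in RefSeq and had 160 to 353 counts per library.

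Tek is the receptor for angiopoietins and Tie1 is its related partner receptor. Tek was measured at 18.8 and 23.2 CPM in wild-type midbrain, 23.0 and 25.3 CPM in knockout midbrain, 23.1 and 24.7 CPM in wild-type forebrain, and 22.4 and 24.6 CPM in knockout forebrain. Tie1 was measured at 28.3 and 40.5 CPM, 33.6 and 37.2 CPM, 36.3 and 33.3 CPM, and 37.2 and 34.5 CPM in the same order of groups. Both receptors had their lowest value in wild-type midbrain replicate 1, their other 7 values overlapped between tissues, and Tie1 had its highest value in the other wild-type midbrain pool.

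The junction genes came next. Pecam1, an adhesion molecule of endothelium, platelets and leukocytes, was at 31.1 and 33.4 CPM in wild-type midbrain, 32.2 and 38.2 CPM in knockout midbrain, 39.0 and 37.5 CPM in wild-type forebrain, and 42.2 and 39.6 CPM in knockout forebrain. Cdh5, the cadherin of endothelial adherens junctions, was at 51.0 and 65.3 CPM, 63.7 and 64.9 CPM, 69.7 and 62.8 CPM, and 68.2 and 59.5 CPM in these groups. For Pecam1, 1 knockout midbrain value reached into the forebrain range, whereas Cdh5 overlapped broadly. Cldn5, the main claudin of brain endothelial tight junctions, was at 20.9 and 27.4 CPM, 26.3 and 27.3 CPM, 24.98 and 23.4 CPM, and 24.9 and 23.7 CPM. Esam, an immunoglobulin-type adhesion molecule of endothelial tight junctions, was at 15.8 and 19.1 CPM, 18.9 and 18.8 CPM, 21.8 and 18.7 CPM, and 18.5 and 21.5 CPM. Cldn5 differed from its fellow junction genes in its order of levels, since 3 of its 4 midbrain values lay above all 4 forebrain values.

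Emcn encodes endomucin, a sialomucin of the luminal surface that is typical of capillaries and veins. Its values were 11.51 and 11.3 CPM in wild-type midbrain, 11.4 and 10.2 CPM in knockout midbrain, 13.2 and 12.8 CPM in wild-type forebrain, and 14.0 and 13.2 CPM in knockout forebrain. Egfl7 encodes a matrix protein secreted by endothelial cells, and miR-126 lies in one of its introns. Its values were 16.8 and 20.8 CPM, 20.2 and 16.8 CPM, 22.9 and 27.0 CPM, and 24.2 and 24.3 CPM in these groups. For both genes all 4 forebrain values were above all 4 midbrain values. The mature miR-126a-3p is given because its host is the member with the largest forebrain difference, with the seed (bases 2 to 8) in capitals; in RefSeq on GRCm38.p6 it lies at chr2:26591402-26591423 on the plus strand, within Egfl7 at chr2:26581083-26592682.
miR-126a-3p: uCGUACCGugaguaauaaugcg
The rows of Mir126a and Mir126b held 5 and 1 counts over all 8 polyA libraries, so the data carry no measure of the miRNA.

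**Figure D1:**
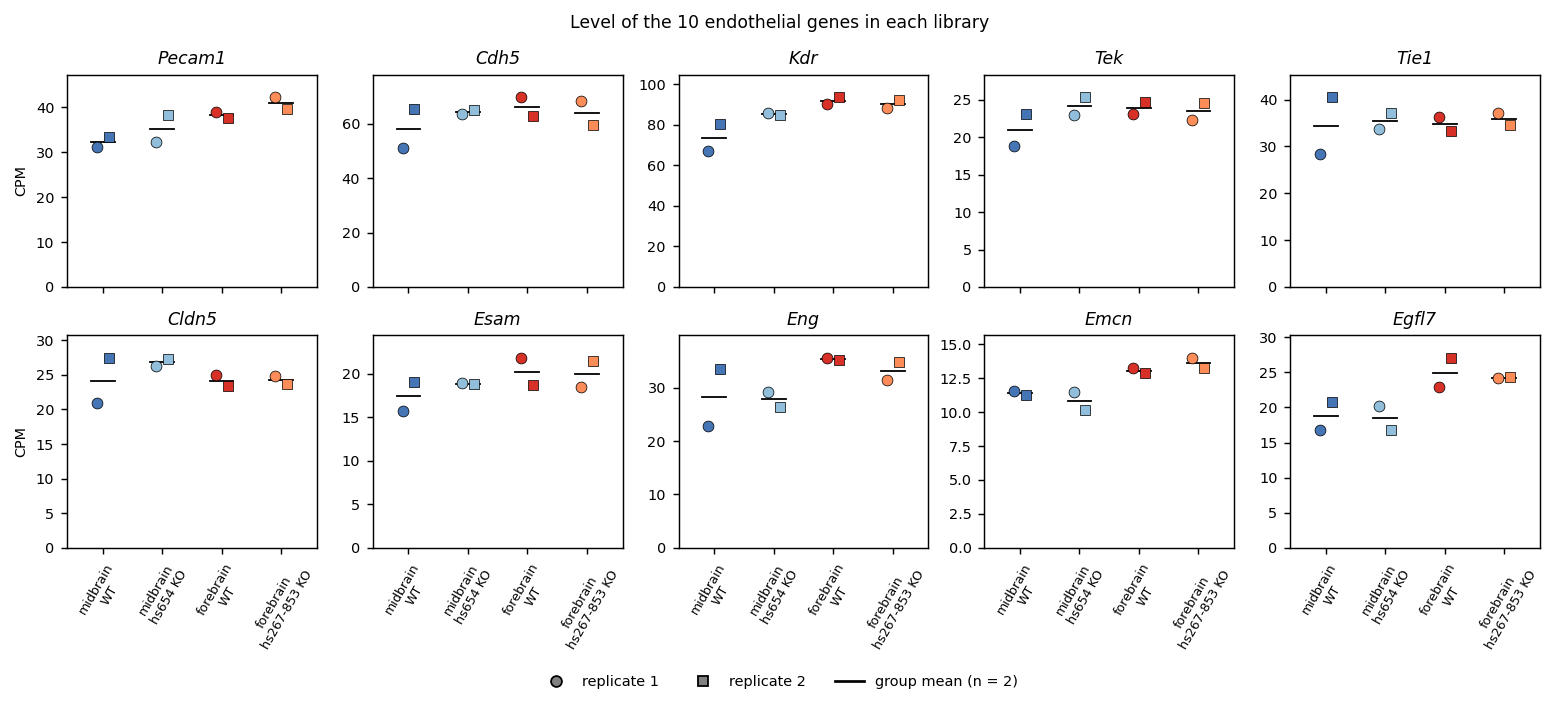
CPM of each of the 10 endothelial genes (y axis, from 0) in the 4 groups (x axis); circles and squares are replicates 1 and 2 and the line is the mean of the 2. Kdr, Emcn and Egfl7 have all forebrain points above all midbrain points, and wild-type midbrain replicate 1 is the lowest point for 9 of the 10 genes, all but Emcn.

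Summed over the 10 genes, the level was 319 ± 50.1 CPM (SD, n = 2) in wild-type midbrain, 347 ± 4.14 CPM in hs654 knockout midbrain, 373 ± 5.51 CPM in wild-type forebrain and 370 ± 2.55 CPM in hs267-853 knockout forebrain. The 4 forebrain libraries held 368 to 377 CPM and the 4 midbrain libraries 284 to 355 CPM, without overlap, a description that was not tested. The SDs rest on 2 pools each, so they do not decide which neighbouring groups differ in this sum. The wide SD of wild-type midbrain came from replicate 1, with 284 CPM, since the other 3 midbrain libraries lay between 344 and 355 CPM. That library also stood apart in erythroid genes, with a summed level of 8378 CPM against 4129 to 5786 CPM in the other 7 (Hba-a1 and Hba-a2 have identical counts in the files and both enter the sum). Its mesenchymal genes summed to 1408 CPM, against 1783 to 1959 CPM in the other midbrain libraries and 1248 to 2203 CPM in forebrain. The part of these differences in the endothelial values was not tested. Values without this library stand beside many of the calls and counts that change with it, but not beside all. A list count given without such a value is not to be taken as steady to its removal.

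**Figure D2:**
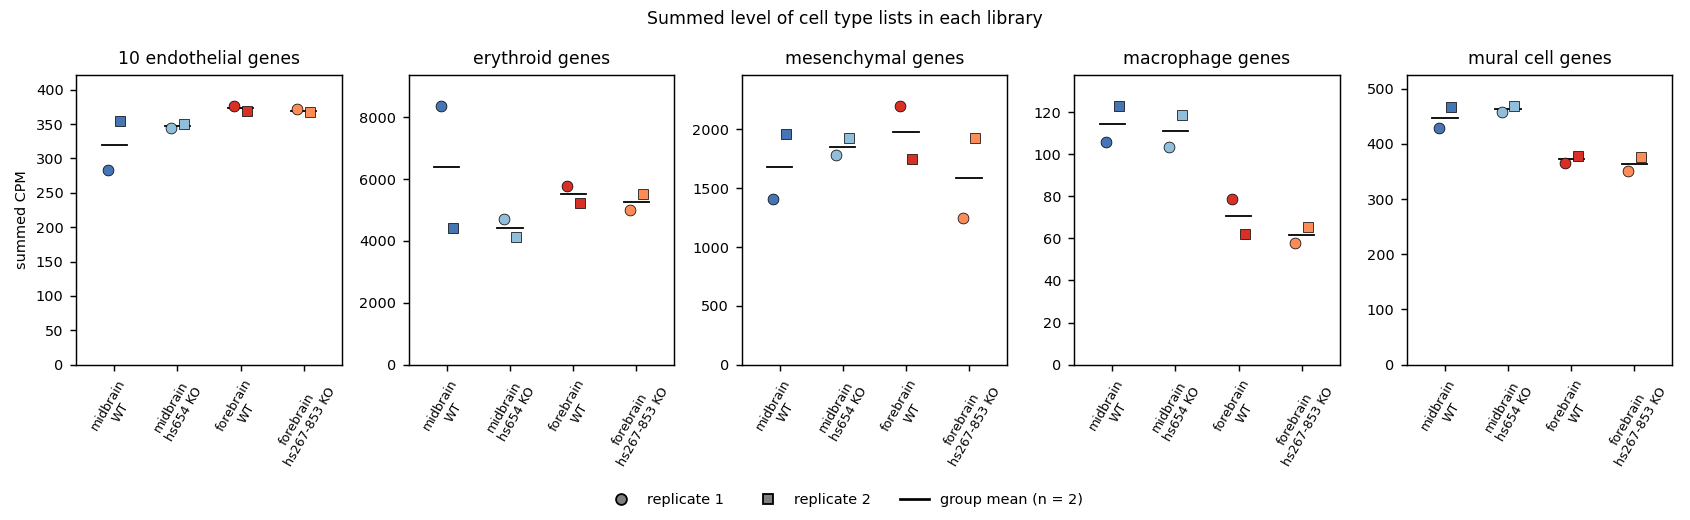
Summed CPM (y axis, from 0) of the 10 endothelial genes and of 4 cell type lists in the 4 groups (x axis); circles and squares are replicates 1 and 2, lines are group means. Wild-type midbrain replicate 1 has the lowest endothelial sum, 284 CPM, and the highest erythroid sum, 8378 CPM.

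The first comparison asked how the endothelial genes differ between wild-type forebrain and wild-type midbrain. Kdr and Egfl7 were higher in forebrain, and the other 8 genes did not pass the test. Kdr went from 73.6 ± 9.48 CPM (SD, n = 2) in midbrain to 92.0 ± 2.24 CPM in forebrain, a log2 fold change of 0.33 (SE 0.08; 1.25-fold; adjusted p = 0.0106 by the quasi-likelihood test of edgeR, Benjamini-Hochberg adjusted over all genes tested). Egfl7 went from 18.8 ± 2.83 CPM to 24.9 ± 2.93 CPM, a log2 fold change of 0.41 (SE 0.14; 1.33-fold; adjusted p = 0.0436). Both were higher in 2 of 2 forebrain pools than in either midbrain pool. The 2 genes are 2 of 10, where 14.3% of all genes were called higher in forebrain and 29.6% were called in either direction.

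Among the genes that missed the threshold, Eng had a log2 fold change of 0.34 (adjusted p = 0.110), Pecam1 of 0.25 (adjusted p = 0.0944) and Esam of 0.23 (adjusted p = 0.262) in edgeR's test. The values were 0.20 for Emcn, 0.19 for Cdh5 and 0.19 for Tek, and those of Tie1 and Cldn5 were 0.02 and 0.01. All 10 values were above 0, as were those of 50.1% of all genes, and their median was 0.21 against 0.0012 over all genes tested. In 5 of the 10 genes (Pecam1, Kdr, Eng, Emcn and Egfl7) the forebrain pools lay above the midbrain pools, against 33.2% of all genes. The 95% intervals of the 10 log2 fold changes ran from -0.28 to 0.72.

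The fit was repeated under 7 other settings (edgeR with other scalings, filters or a replicate block, DESeq2, and limma-voom). Their adjusted p was 0.00051 to 0.0164 for Kdr, called in 7 of 7, and 0.0144 to 0.0847 for Egfl7, called in 4 of 7. Both calls were lost without wild-type midbrain replicate 1. Without it Kdr had a log2 fold change of 0.19 and Egfl7 of 0.26. The median of the 10 was then 0.077, 8 of 10 remained above 0, and Tie1 and Cldn5 were then at -0.22 and -0.18. Without wild-type midbrain replicate 2, 4 genes were called (Cdh5, Kdr, Eng and Egfl7), and without wild-type forebrain replicate 2, 0. In that last fit the median of the 10 was 0.27 with all 10 above 0, and Kdr and Egfl7 were at 0.30 and 0.29. Without either knockout midbrain replicate, Kdr was the 1 gene called.

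Averaging both genotypes of each tissue sets 4 forebrain against 4 midbrain libraries. In this comparison 4 of the 10 genes were called higher in forebrain by edgeR's test, where 22.7% of all genes were called higher and 44.3% in either direction. They were Egfl7 with a log2 fold change of 0.40 (SE 0.10, adjusted p = 0.00645), Kdr with 0.20 (SE 0.06, adjusted p = 0.0139), Pecam1 with 0.24 (SE 0.07, adjusted p = 0.0213) and Eng with 0.29 (SE 0.11, adjusted p = 0.0400). Emcn, whose 4 forebrain values were all above its 4 midbrain values, missed the threshold with 0.26 (SE 0.10, adjusted p = 0.0552). Cldn5 was the 1 gene of the 10 below 0, at -0.07 (adjusted p = 0.603), and 51.3% of all genes were above 0. The median was 0.18 against 0.0090 over all genes, and 3 genes (Kdr, Emcn and Egfl7) had tissues that did not overlap, against 20.6% of all genes.

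Egfl7 had the steadiest of these 4 calls. It was called in 8 of 8 fits that left out 1 library and under 7 of 7 other settings, but not by a test for a change of more than 1.5-fold. Under those 7 other settings of edgeR, DESeq2 and limma-voom its adjusted p was 0.00039 to 0.0113. Without wild-type midbrain replicate 1 it was still called, with a log2 fold change of 0.32. Kdr then had 0.13 (adjusted p = 0.0818), Pecam1 0.20 (adjusted p = 0.0868) and Eng 0.16 (adjusted p = 0.174). Egfl7 was also the 1 called gene without knockout midbrain replicate 1, Kdr and Egfl7 were called without wild-type forebrain replicate 1, and 3 or 4 genes were called without any 1 of the other 5 libraries. The wild-type comparison and the average share the wild-type libraries, so they are not independent of each other.

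**Figure D3:**
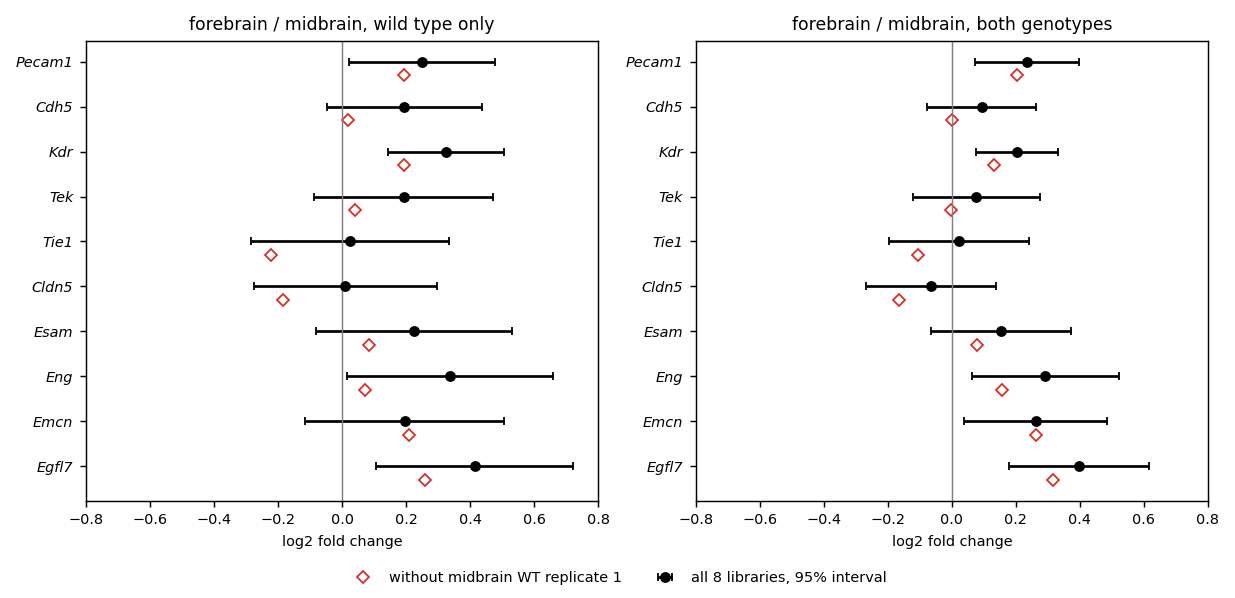
Log2 fold change of forebrain over midbrain (x axis) for the 10 endothelial genes, in wild type (left) and averaged over both genotypes (right); black points with bars are the fit to all 8 libraries with 95% intervals, red diamonds the fit without wild-type midbrain replicate 1. Egfl7 lies farthest to the right in both panels, at 0.41 and 0.40, and the red diamonds of Tie1 and Cldn5 lie below 0.

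The share of each gene in the summed level of the 10 describes the balance among them. Cldn5 took 7.36% to 7.80% of the sum in the 4 midbrain libraries and 6.33% to 6.69% in the 4 forebrain libraries. Egfl7 took 4.80% to 5.91% in midbrain and 6.07% to 7.32% in forebrain. These were the 2 genes of the 10 whose shares did not overlap between tissues, and they went in opposite directions. The shares of the other 8 genes overlapped. Because the shares are parts of a single sum, a higher share of a gene lowers those of others, so opposite directions are partly built in. The shares carry no test and were not computed for other genes, so no background stands beside this count.

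The other endothelial genes split by direction. In wild type, 13 of the 35 tested were called higher in forebrain and 2 lower, with a median log2 fold change of 0.34, against 14.3% and 15.3% of all genes called higher and lower and a median of 0.0012. When 1 library was left out 9 to 19 were called in all, the fewest without wild-type midbrain replicate 1 (9) and 10 without either wild-type forebrain replicate. Plvap, the protein of fenestral diaphragms that immature brain vessels also make, was at 17.7 and 22.6 CPM in wild-type midbrain and 35.2 and 31.7 CPM in wild-type forebrain, a log2 fold change of 0.74 (SE 0.14; adjusted p = 0.00179 in edgeR's test). S1pr1, a receptor for sphingosine-1-phosphate that neural progenitors also make, was at 14.3 and 16.6 CPM against 40.9 and 35.1 CPM, a log2 fold change of 1.31 (SE 0.13; adjusted p = 6.79e-06). Cd34, a surface sialomucin of vessels and blood precursors, had 0.52, and the ETS factor gene Fli1 had 0.78. Fli1 was at 0.48 and no longer called without wild-type midbrain replicate 1, while Plvap, S1pr1 and Cd34 were called in 8 of 8 fits that left out 1 library.

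The genes lower in forebrain were Vwf and Tal1. Vwf, the adhesive glycoprotein stored by endothelial cells and platelets, was at 17.6 and 26.1 CPM in wild-type midbrain and 10.0 and 9.83 CPM in wild-type forebrain, a log2 fold change of -1.13 (SE 0.20; adjusted p = 0.000849 in edgeR's test). Tal1, a factor of blood and endothelial precursors that midbrain neurons also make, had -2.01. The megakaryocyte and platelet list had 0 of 6 genes called in wild type by edgeR (1 at an unadjusted p under 0.05), and Pf4 had a log2 fold change of -0.23. In the average over genotypes 2 of the 6 were called (Gp9 higher, Gp1bb lower), with 4 at an unadjusted p under 0.05 in edgeR's test. The part of platelets in the Vwf values was not tested. Averaged over genotypes, 15 of the 35 other endothelial genes were higher and 4 lower, among the latter Ptprb and Podxl. Of all genes 29.6% were called in either direction in wild type. In the average 22.7% were called higher and 44.3% in either direction.

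Around Kdr, 5 of 9 tested ligands, receptors and coreceptors of the VEGF axis (Vegfb, Vegfc, Nrp2, Flt1 and Flt4, the last pair also in the list above) were called higher in wild-type forebrain and 0 lower. Of all genes 14.3% were called higher and 15.3% lower there, and 22.7% higher in the average over genotypes. Vegfc, ligand of Flt4 and Kdr, had 4.11 and 6.07 CPM in midbrain and 12.49 and 12.0 CPM in forebrain, a log2 fold change of 1.28. The 2 receptors related to Kdr, Flt1 and Flt4, had 0.35 (adjusted p = 0.0378 in edgeR's test) and 0.76. Vegfa itself had 0.09 (adjusted p = 0.608), and in the average over genotypes 0.26 (adjusted p = 0.0260), with the highest level, 101 CPM, in knockout forebrain replicate 2. That average for Vegfa was called in 3 of 8 fits that left out 1 library. In wild type without midbrain replicate 1, Flt1 was at 0.26 and Flt4 at 0.73, neither called, though in the average both were called in 8 of 8 such fits. Fewer of the 9 were called in wild type without wild-type midbrain replicate 1 or without either wild-type forebrain replicate, and fewer of all genes too. In the average 6 were called, and 5 or 6 when 1 library was left out.

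Around Tek and Tie1, 0 of 4 tested genes were called in wild type by edgeR, with 2 at an unadjusted p under 0.05, and all 4 were below 0. Of the 15383 genes 29.6% were called there in either direction, 6109 had an unadjusted p under 0.05 in edgeR's test, and 50.1% were above 0. In the average over genotypes 44.3% were called. Angpt1, the activating ligand, had a log2 fold change of -0.08, and Angpt2, the ligand that modulates it, had -0.69 (adjusted p = 0.110). Ptprb, the phosphatase that restrains Tek and holds Cdh5 junctions together, was at 16.6 and 20.4 CPM in midbrain and 14.1 and 14.2 CPM in forebrain, a log2 fold change of -0.38 (SE 0.14; adjusted p = 0.0592). It was called without wild-type midbrain replicate 1 or without either knockout forebrain replicate. In the average over genotypes Ptprb passed the test at -0.54 (adjusted p = 0.000676), as did Angpt2 at -0.57 (adjusted p = 0.0457). The call of Ptprb in the average held in 8 of 8 fits that left out 1 library and that of Angpt2 in 2 of 8, and Angpt2 was at -0.61 and not called without wild-type midbrain replicate 1. Around Eng, 1 of 10 tested genes was called higher, the signal transducer Smad5, and 2 lower, the receptor Tgfbr1 and the target Id3, in all near the 29.6% of genes called in either direction. Acvrl1, the receptor that works with endoglin, had 0.38 (adjusted p = 0.0997), and 0.30 (adjusted p = 0.0495) in the average. That call held in 2 of 8 fits that left out 1 library, and without wild-type midbrain replicate 1 the average was 0.21.

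**Figure D4:**
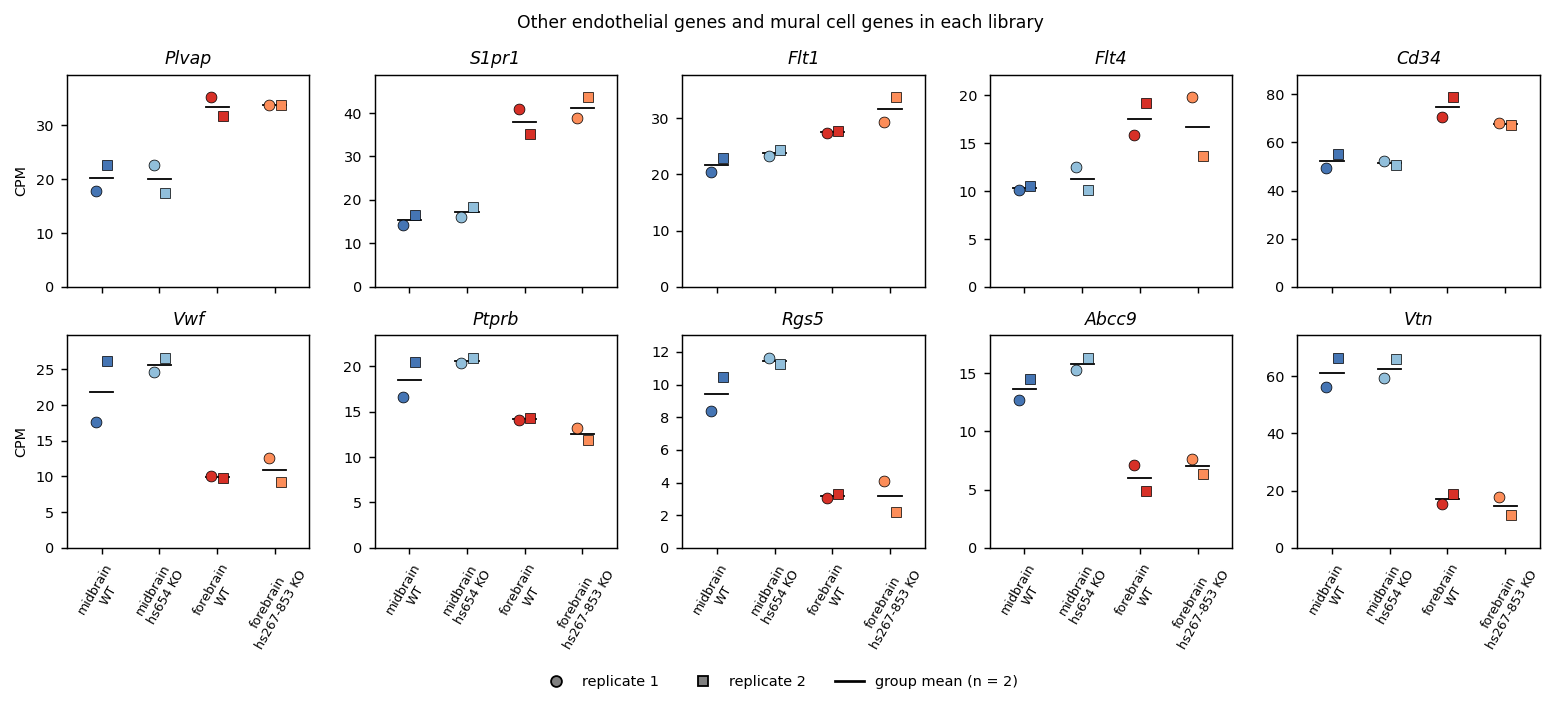
CPM (y axis, from 0) of 7 further endothelial genes and 3 mural cell genes (Rgs5, Abcc9, Vtn) in the 4 groups (x axis); circles and squares are replicates 1 and 2, lines are group means. Plvap and S1pr1 are higher and Vwf, Ptprb and the 3 mural genes lower in all 4 forebrain libraries than in all 4 midbrain libraries.

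Vessel subtypes and barrier genes were divided, and their counts are to be read against the 14.3% of all genes called higher and the 15.3% called lower. Of 12 arterial genes 2 were called higher in wild-type forebrain and 2 lower, and of 4 venous genes 3 were higher (Ephb4, Aplnr and Nrp2). The other venous gene, Nr2f2, was below 0 and not called in wild type. In the average over genotypes it was called lower, where 44.3% of all genes were called in either direction. The venous median in wild type was 0.45, and 0.29 without wild-type midbrain replicate 1. Several of these arterial and venous genes are also neural genes: Efnb2, an arterial ligand that neural progenitors make, had a log2 fold change of 2.07. Of 23 brain barrier genes, 9 were higher and 4 lower, with a median of 0.085. Slc2a1, the glucose transporter of barrier endothelium and of other growing cells, had 0.58 (adjusted p = 0.00158 in edgeR's test), Slco1c1, a thyroid hormone transporter, had -1.69, and the lipid transporter gene Mfsd2a had -0.02 (adjusted p = 0.927). Without wild-type midbrain replicate 1, 9 barrier genes were called in all and their median was -0.073.

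Genes of the mural cells around the vessels were divided, with more lower than higher in forebrain. Of 11 pericyte and smooth muscle genes, 4 were lower in wild-type forebrain (Rgs5, Abcc9, Notch3 and Vtn) and 2 higher (Pdgfrb and Tagln). Among all genes 15.3% were called lower and 14.3% higher. Rgs5, a regulator of G-protein signalling typical of pericytes, was at 8.41 and 10.5 CPM in wild-type midbrain and 3.05 and 3.33 CPM in wild-type forebrain, a log2 fold change of -1.56 (SE 0.26; adjusted p = 0.000696 in edgeR's test). Abcc9, a potassium channel subunit of pericytes, had -1.17, and Vtn, vitronectin, had -1.85. Pdgfrb, the receptor by which endothelium recruits pericytes, had 0.57. The summed level of the list was 352 to 379 CPM in forebrain and 429 to 469 CPM in midbrain.

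Macrophage genes were lower in forebrain for 6 of 13 tested and higher for 0, with 1 called without wild-type midbrain replicate 2 or wild-type forebrain replicate 2 and sums of 57.7 to 78.7 CPM against 104 to 123 CPM, and the defining gene Csf1r had a log2 fold change of -0.89. Erythroid genes were called for 1 of 13 (Hbb-bs, lower), and for 0 to 7 of 13 when 1 library was left out, 4 without wild-type midbrain replicate 1 and 7 without replicate 2. Of 9 mesenchymal genes, 3 were higher and 1 lower. The counts of all these lists stand beside 14.3% of all genes called higher and 15.3% called lower. All 9 neuronal genes were lower in forebrain, with a median of -0.91, and sums of 1443 to 2035 CPM against 3409 to 3833 CPM in midbrain. Of the tested and untested markers of these 5 cell types, Higd1b, a pericyte gene, was the 1 at 0 in any library, in 5 of 8. The part of these cell types in the endothelial differences was not tested.

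An alternative added after the data were seen scaled every library to the summed level of the 10 genes. By construction it centres these 10 genes, so their own calls on this scale carry no information and it serves only to set other genes against them. It set the median of all genes at -0.24 in the wild-type comparison and -0.16 in the average, and changed the split of calls from 2196 higher and 2352 lower to 626 and 3532 in wild type, and from 3494 and 3316 to 1025 and 4235 in the average. Plvap still had 0.51 (adjusted p = 0.0228), S1pr1 1.07 and Vwf -1.35, and Ptprb was called at -0.61 (adjusted p = 0.0103), all in wild type. Rgs5, Abcc9 and Vtn were at -1.79, -1.41 and -2.08. This scale shifts the genes down together, so the lower values of genes already below 0 (Vwf, Ptprb, Rgs5, Abcc9 and Vtn) were set by construction. Among them, Ptprb was not called in wild type in the main fit. Plvap and S1pr1 were still called higher relative to the 10 members in wild type. Flt1 (0.11, adjusted p = 0.684 in edgeR's test) and Cd34 (0.28, adjusted p = 0.185) were no longer called there. In the average on this scale Cd34 was called (0.29, adjusted p = 0.0304) and Flt1 was not (0.21, adjusted p = 0.194).

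The second comparison asked whether the endothelial genes change in midbrain without hs654. None of the 10 passed the test, nor did any of the 15383 genes (0% called; 609 genes, 3.96%, had an unadjusted p under 0.05 in edgeR's test, and DESeq2 and limma-voom called 0 of the 10). The log2 fold changes ran from -0.07 (Emcn) to 0.22 (Kdr), 7 were above 0 (49.7% of all genes), and the median was 0.12 against -0.00092 over all genes. Kdr was the gene with an unadjusted p under 0.05 in edgeR's test (0.0252; adjusted p = 0.992; SE 0.09), and the 1 gene whose knockout pools both lay above the wild-type pools, which held for 17.9% of all genes. The 95% intervals of the 10 genes ran from -0.40 to 0.49 and no change was detected. Without wild-type midbrain replicate 1 the median was -0.024 with 3 genes above 0, and without replicate 2 it was 0.30 with 9 above 0.

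Kdr had 0.22 in this comparison and 0.33 between wild-type forebrain and midbrain, and the corresponding values were -0.01 and 0.41 for Egfl7. These were 0.09 and 0.19 for Kdr and -0.16 and 0.26 for Egfl7 without wild-type midbrain replicate 1. The 2 comparisons share the wild-type midbrain pools, so these values are not independent. The erythroid list had a median of -0.50 between knockout and wild-type midbrain, with 6 of 13 at an unadjusted p under 0.05 and 0 called by edgeR, and 0.037 without wild-type midbrain replicate 1. The other endothelial genes had a median of 0.10 and 0.00045 without that library, the mural genes 0.13 and -0.079, and the mesenchymal genes 0.15 and -0.081. The part of these lists in the endothelial values was not tested.

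The third comparison asked the same of forebrain without hs267-853. Again none of the 10 genes passed the test, where 2 of 15383 genes (0.0130%) did, and none had an unadjusted p under 0.05, which 4.78% of all genes had in edgeR's test. DESeq2 and limma-voom called 0 of the 10. The log2 fold changes ran from -0.10 (Eng) to 0.10 (Pecam1), 4 were above 0 (52.6% of all genes), and the median was -0.024 against 0.0078 over all genes. Pecam1 was higher in both knockout pools than in both wild-type pools, as were 17.2% of all genes, and Eng was lower in both, as were 13.9%. The 95% intervals ran from -0.41 to 0.36. In the same libraries the mesenchymal list had a median of -0.33 with 0 of 9 above 0 and the macrophage list -0.26, again with 0 genes called by edgeR, and their part in the endothelial values was not tested.

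The 2 knockout effects were also set against each other, in a test of their difference. None of the 10 genes passed, with 0 at an unadjusted p under 0.05 in edgeR's test, against 1 gene (0.00650%) and 4.02% of all genes. The differences (midbrain minus forebrain) ran from -0.13 for Emcn to 0.24 for Kdr, with 95% intervals from -0.58 to 0.63. Of the 10 differences 9 were above 0 (46.3% of all genes) with a median of 0.12, but without wild-type midbrain replicate 1 it was 4 of 10 with a median of -0.028, and Kdr was at 0.12. The deleted enhancer and the tissue differ together between these 2 effects, so their parts cannot be told apart. A difference between the 2 knockout effects was thus not detected in these genes.

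**Figure D5:**
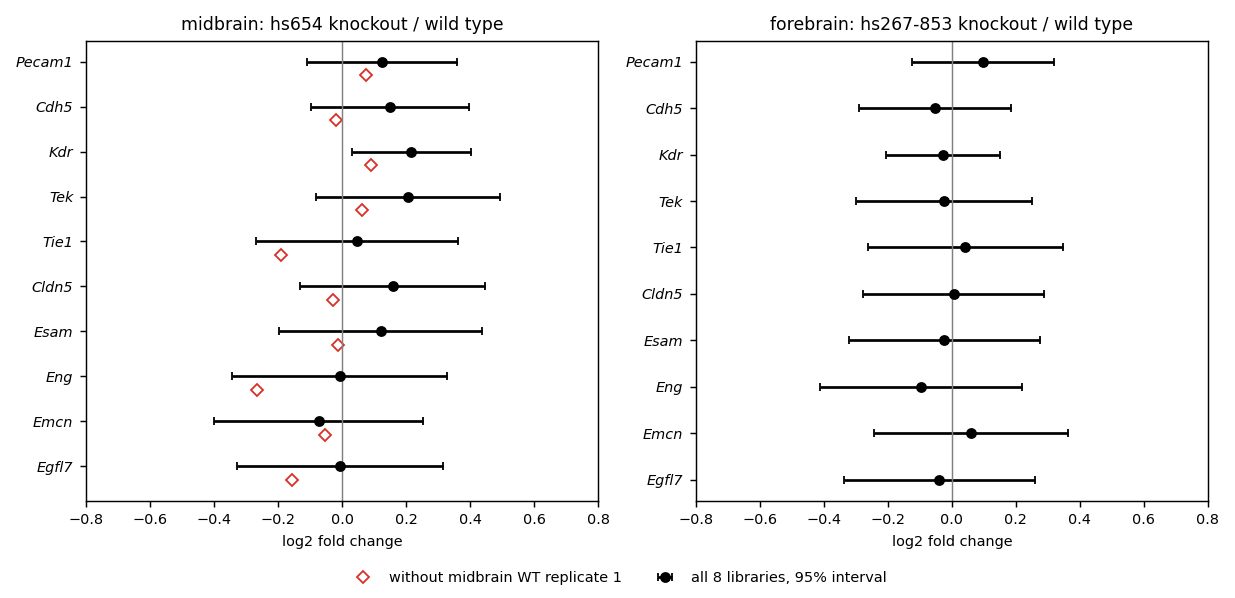
Log2 fold change of knockout over wild type (x axis) for the 10 endothelial genes in midbrain (left) and forebrain (right); black points with bars are the fit to all 8 libraries with 95% intervals, red diamonds the midbrain fit without wild-type replicate 1. In forebrain all points lie between -0.10 and 0.10, and in midbrain most diamonds lie left of the points.

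The joint variation of the 10 genes across libraries rested on wild-type midbrain replicate 1. Over 8 libraries, 41 of the 45 pairs of members had a positive Pearson r of log2 CPM, with a median of 0.58. Without that library, 23 of 45 were positive and the median was 0.055. The 8 points share tissue, depth and pool, and no test is given.

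Of 14311 other genes with a mean of at least 1 CPM, the 10 whose pattern was most like the mean of the standardised members were Cyren, Cd302, Mprip, Pacsin2, Stx2, Gnas, Arfgap1, Ets1, Calr and Zyx, with Pearson r from 0.97 to 0.95 over 8 libraries. After tissue means were subtracted their r was 0.91 to 0.96, and without wild-type midbrain replicate 1 it was 0.75 to 0.98. One of them, Ets1, encodes an ETS factor made by endothelial cells among others. None of the other endothelial genes was among the 10, though over all 8 libraries 34 of them had a median r of 0.64 against 0.023 over all genes compared. That median was not taken without wild-type midbrain replicate 1, so its dependence on that library is not known.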

How the data were processed

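The deposited files hold raw gene counts, 1 file per library, of polyA RNA from 8 tissue pools. The submitters' processing notes name STAR, HTSeq, DESeq2 and the build mm10, with no role or version; the annotation and the strand setting of the counting are not given in the sources used here. Entries that name no gene stayed out of library sizes; reads in no annotated feature made up 55.4% to 58.9% of the file totals. Counts that share reads with an overlapping gene are uncertain for that reason. Enhancer-capture Hi-C samples (21 of the 29 in the series) were not analysed here.

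Counts were fitted in R 4.3.3 with edgeR 4.0.16: filterByExpr by group, TMM scaling, 1 mean per group over all 8 libraries, quasi-likelihood F tests (two-sided) and Benjamini-Hochberg adjustment over 15383 genes, with a threshold of 0.05. CPM are TMM-scaled counts relative to the total over tested genes (CPM in its usual scale). Pearson r used log2 CPM with a prior count of 2. DESeq2 1.42.0 and limma 3.58.1 (voom) were alternatives, beside other scalings and filters, a test for more than 1.5-fold, the libraries of 1 tissue alone, a replicate block, and leaving out each library. Intervals are 95% and, like the p-values, measure the spread between pools, whose separate origin beyond their tubes the labels do not describe. Levels were not compared between genes, since transcript lengths were not used. Replicate pools differed by more than counting noise in all 4 groups, with a chi-square statistic of 3.75 to 7.74 for each degree of freedom. Same-numbered replicates did not deviate together (correlations of -0.025 to 0.067), so the numbers were not taken to pair the pools. In simulated data for wild-type forebrain against midbrain (15146 genes), 66 genes were changed at each of the sizes that follow. The fit recovered 50% of those changed by 0.58 on the log2 scale, 78.8% by 1 and 93.9% by 2, with 20 false calls. Whether these rates hold for the data, where 4548 of 15383 genes were called in this comparison, was not tested.

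The 10 genes and all gene lists were chosen with earlier results of these data known. Named were all 10 genes; list genes that passed the threshold or are a ligand, receptor partner or marker of a member; the 10 genes most like the members over 8 libraries; and genes that overlap a member. Ets1 was tested for its tissue difference after its pattern was seen. Promoter, gene and miRNA positions and sequences are from RefSeq on GRCm38.p6.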

Additional observations from a re-analysis of the deposited data

How the results depend on the processing

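With 2 pools a group, 50% of 66 simulated 1.5-fold changes were recovered between wild-type tissues (15146 genes). Whether this rate holds for the data, where 4548 of 15383 genes were called, was not tested. Without wild-type midbrain replicate 1 the median log2 fold change of the members between wild-type tissues was 0.077, against 0.21 with it. Members called stayed at 0 in both knockout comparisons and in their difference under every alternative run. Called members in wild-type forebrain against midbrain numbered 1 with upper-quartile scaling, with a mean of at least 50 counts and with DESeq2, 0 in the test for more than 1.5-fold, and 0 to 4 when 1 library was left out, against 2. In the average over genotypes they numbered 2 with DESeq2, 0 in the 1.5-fold test, and 1 to 4 when 1 library was left out, against 4. Scaled to the summed members, 0 were called in either, which that scale fixes by centring these genes.

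Genes called between tissues numbered 1086 in wild type and 1438 in the average in the 1.5-fold test, and 2816 to 5285 in wild type when 1 library was left out. For the hs654 knockout, 22 genes were called with no filter, 1 with the midbrain libraries alone and 0 to 8 when 1 library was left out. For the hs267-853 knockout, 161 were called with no filter, 13 with DESeq2, 1 each with limma-voom, the 1.5-fold test and the forebrain libraries alone, and 1 to 209 when 1 library was left out. For the difference of the knockout effects, 111 were called with no filter, 4 with DESeq2, 0 in the 1.5-fold test and 0 to 64 when 1 library was left out. The cause of these differences was not tested. The replicate block called 0, 0, 2, 4 and 0 members in the 5 comparisons, in the order midbrain knockout, forebrain knockout, wild-type tissues, average and difference, and 0, 3, 4501, 6796 and 1 genes; it moved no count of members.

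None of the reversed log2 fold changes of members belonged to a call. In the hs654 comparison Eng and Egfl7, just below 0, came to 0.0021 and 0.0034 with RLE scaling, 0.0019 and 0.0033 with no filter, 0.0033 and 0.0049 with a mean of at least 50 counts and 0.041 and 0.016 with limma-voom, and Eng to 0.0049 with the replicate block. Cldn5 came to -0.0020 (mean of at least 50 counts) and -0.0041 (forebrain libraries alone) in the hs267-853 comparison and to -0.0075 (mean of at least 50 counts) between wild-type tissues, and Tie1 to -0.0049 in the average (mean of at least 50 counts). Scaled to the summed members, the wild-type values were -0.034 for Cdh5, -0.038 for Tek, -0.20 for Tie1, -0.22 for Cldn5, -0.0087 for Esam, -0.049 for Emcn and -0.16 for Vegfa, and the averages were -0.067 for Cdh5, -0.084 for Tek, -0.13 for Tie1 and -0.0082 for Esam.

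Leaving out 1 library at a time gave these ranges where a sign changed. In the hs654 comparison they were -0.00067 to 0.26 for Pecam1, -0.019 to 0.33 for Cdh5, -0.19 to 0.32 for Tie1, -0.029 to 0.36 for Cldn5, -0.014 to 0.26 for Esam, -0.26 to 0.29 for Eng, -0.15 to 0.0062 for Emcn and -0.16 to 0.15 for Egfl7. In the hs267-853 comparison they were -0.16 to 0.040 for Cdh5, -0.057 to 0.0030 for Kdr, -0.094 to 0.045 for Tek, -0.018 to 0.11 for Tie1, -0.040 to 0.056 for Cldn5, -0.13 to 0.093 for Esam and -0.16 to 0.084 for Egfl7. Between wild-type tissues they were -0.22 to 0.30 for Tie1, -0.18 to 0.21 for Cldn5, -0.0050 to 0.20 for Vegfa and -0.16 to 0.11 for Mfsd2a, and in the average -0.0036 to 0.16 for Tek, -0.10 to 0.16 for Tie1 and -0.17 to 0.037 for Cldn5. For the difference of the knockout effects they were -0.098 to 0.17 for Pecam1, -0.23 to 0.28 for Tie1, -0.035 to 0.35 for Cldn5, -0.17 to 0.38 for Eng and -0.12 to 0.19 for Egfl7.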

Other observations

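The rows that RefSeq places over a member held few counts apart from Fpgs: Mir1954 over Eng had 4 counts in all 8 libraries and Gm29682 over Cdh5 had 0. Of the 6 tested megakaryocyte and platelet genes edgeR called 0 between wild-type tissues, with 1 at an unadjusted p under 0.05, and 2 in the average (Gp9 higher, Gp1bb lower), with 4 at an unadjusted p under 0.05; in the average 0 to 4 were called when 1 library was left out, 0 without wild-type midbrain replicate 1. Among all genes 29.6% were called between wild-type tissues and 44.3% in the average. Ets1 was picked for its likeness to the members over these same libraries, so a test of its tissue difference carries no separate weight. Its log2 fold change was 0.39 between wild-type forebrain and midbrain, and 0.21 without wild-type midbrain replicate 1. Smad6, a BMP inhibitor, had 0.38 in wild type (adjusted p = 0.129) and 0.51 in the average over genotypes (adjusted p = 0.00550). Lmo2, a partner of Tal1, had 0.82 in wild type (adjusted p = 0.000418), and Tal1 itself had -2.01.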
